A study of Homo sapiens and Mus musculus with 55 samples.

Results

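Transcripts of the chemokines that call neutrophils and monocytes out of the blood were followed in 4 breast cancer cell lines. The genes were chosen by symbol, with earlier results of these data known: CXCL1, CXCL2, CXCL3, CXCL5, CXCL6, CXCL8, CCL2 and CCL20 in 8 human tables, and Cxcl1, Cxcl2, Cxcl3, Cxcl5, Ccl2 and Ccl20 in 2 mouse tables. Of the 8 human symbols, 7 had a row in at least 1 human table, among 39118 symbols in all, and all 6 mouse symbols had a row among 28000. CXCL6 was not analysed here.

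CXCL1, CXCL2, CXCL3, CXCL5, CXCL6 and CXCL8 are secreted ligands of CXCR1 and CXCR2, the receptors by which neutrophils find inflamed tissue and tumours, while CCL2 binds CCR2 on monocytes. CCL20 binds CCR6, which is found on immature dendritic cells, B cells and some T cells, so its cells differ in part from those of the others. Epithelial and tumour cells switch these genes on when NF-kB, often with AP-1 or C/EBP factors, is activated by IL-1, TNF or innate sensors. When cGAS meets DNA in the cytosol it makes a second messenger that binds STING, and STING can then activate both IRF3 and NF-kB. Mice have no CXCL8 gene, and their Cxcl1, Cxcl2 and Cxcl5 act on Cxcr2.

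RNA sequencing covered 55 libraries in 25 groups, with 2 libraries per human group and 3 per mouse group. The human lines were MDA-MB-436 and SUM159PT, both triple-negative breast cancer, and the mouse mammary tumour lines were 4T1 and Py230. In both human lines, untreated cells labelled Tax-R were set against untreated parental cells labelled Par, and Tax-R cells given MYC siRNA 1 or 2 against Tax-R cells given a control siRNA (siC). Human cells with a STING sgRNA, in groups labelled C1 and C2, were set against mock cells labelled parental, and STING sgRNA cells carrying a STING open reading frame (ORF) against STING sgRNA cells carrying a GFP ORF. In 4T1, MYC siRNA 1 or 2 was set against control siRNA. Py230 cells that all carried a Sting1 shRNA were given doxycycline or vehicle, so that an effect of doxycycline itself and that of the shRNA cannot be told apart. The labels do not say how Tax-R cells were selected, what C1 and C2 stand for, or whether the libraries of a group came from separate cultures, and the p-values therefore cover only the spread among these libraries.

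Values are the authors' normalized counts, in which each library's reads were divided by 1 factor, at a recovered depth of 5663610 to 13191675 reads per library. Changes are log2 fold changes ± SE of log2(value + 1), tested by limma across all genes whose mean over a table reached 10, and a gene is said to rise or fall only where the Benjamini-Hochberg adjusted p was below 0.05. STING1, listed as TMEM173, changed in the labelled direction in each STING comparison: by -1.85 ± 0.15 in MDA-MB-436 and -1.28 ± 0.11 in SUM159PT with sgRNA, by 4.47 ± 0.16 and 4.37 ± 0.12 with the ORF, whose own transcripts are counted there, and by -4.14 ± 0.09 in Py230 with doxycycline. MYC transcript fell by 0.87 ± 0.04 in SUM159PT Tax-R cells labelled siMYC, but by only 0.09 ± 0.03 in MDA-MB-436 Tax-R cells, and in 4T1 its change of -0.09 ± 0.04 was not called (limma adjusted p = 0.0683). The 2 MDA-MB-436 Tax-R libraries differed by less than sampling noise (chi-square of 0.855 per gene, against 1.02 to 2.73 in other pairs), although their 21 most abundant genes differed beyond it, and counting them as 1 library changed no call. VIM stood at 99.6 to 136.1 RPM (reads of the gene scaled by the library total, computed from recovered reads) in the 2 Tax-R over Par tables and at 1440 to 2881 in the other 6 human tables, so levels were not compared between these sets.

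Promoter sequences of 6 human members are shown because the same short letters recur in them. They are the 100 bases before each transcription start in RefSeq (GRCh38.p14), with capitals marking GGAATTTCC, or in CCL20 GGAAAACCC, which are both of the kind that NF-kB binds.
CXCL8, chr4:73740469-73740568, plus strand: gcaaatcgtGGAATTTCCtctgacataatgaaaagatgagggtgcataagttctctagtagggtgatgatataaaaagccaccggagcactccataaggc
CXCL1, chr4:73869293-73869392, plus strand: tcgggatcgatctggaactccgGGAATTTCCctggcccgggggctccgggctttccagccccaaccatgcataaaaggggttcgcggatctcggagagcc
CXCL2, chr4:74099196-74099295, minus strand: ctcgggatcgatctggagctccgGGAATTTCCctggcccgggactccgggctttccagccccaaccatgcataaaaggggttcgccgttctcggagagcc
CXCL3, chr4:74038690-74038789, minus strand: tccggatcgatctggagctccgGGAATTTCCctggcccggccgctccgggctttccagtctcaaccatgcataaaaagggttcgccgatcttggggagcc
CXCL5, chr4:73998678-73998777, minus strand: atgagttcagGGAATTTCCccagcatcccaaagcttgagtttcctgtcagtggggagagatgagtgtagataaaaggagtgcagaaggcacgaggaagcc
CCL20, chr2:227813742-227813841, plus strand: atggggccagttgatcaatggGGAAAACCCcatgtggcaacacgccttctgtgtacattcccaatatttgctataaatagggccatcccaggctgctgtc
Of the 8 human genes, 7 had an entry in the promoter table. GGAATTTCC lay at -91 to -83 in CXCL8, at -78 to -70 in CXCL1 and CXCL3, at -77 to -69 in CXCL2, at -90 to -82 in CXCL5 and at -89 to -81 in CXCL6, counted from the base before the start as -1. In CCL20, GGAAAACCC lay at -79 to -71. CXCL8 also held the AP-1 motif TGACTCA at -137 to -131, outside the printed stretch. Among the 250 bases before the start of 35116 RefSeq promoters, on both strands, 0.413% held GGAATTTCC, 0.39% held GGAAAACCC and 4.2% held TGACTCA. A match of letters is a description and not a binding site. CXCL8, CXCL6, CXCL1, CXCL5, CXCL3 and CXCL2 lie in this order within a run of 9 protein-coding genes on chromosome 4, CCL2 is on chromosome 17 and CCL20 on chromosome 2. CXCL1, CXCL2 and CXCL3 are closely related, with 8.99% of the 50-base words of CXCL2 transcripts found in CXCL3 and 6.01% the other way, and 4.81% of those of CXCL1 found in CXCL2, so some reads of these 3 genes could be split between them.

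Tax-R cells of both human lines had less of these chemokine transcripts than parental cells. All 5 tested members fell in MDA-MB-436 Tax-R cells, where 26.9% of all tested genes were lower and 27.7% higher. In SUM159PT Tax-R cells 4 of 5 fell, where 22.1% of all genes were lower and 23.5% higher. CXCL1 passed the filter in both tables only through the Par libraries, so its fall there is a description; of the members with a mean of 10 or more in both groups, 4 of 4 fell in MDA-MB-436 and 3 of 4 in SUM159PT. MYC siRNA in Tax-R cells lowered 3 of 4 tested members in MDA-MB-436 and raised 1, where 33.7% of all genes were lower and 34% higher. CCL20 passed there only through the siC libraries, and without it 2 of 3 fell and 1 rose. In SUM159PT siMYC lowered 3 of 4, where 34.5% of all genes were lower and 35% higher. In 4T1 it raised 2 of 5 and lowered 1, where 24.7% of all genes were higher and 21.5% lower, a share near the background.

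STING sgRNA lowered 2 of 3 tested members in SUM159PT, where 19.8% of all genes were lower and 19.3% higher. In MDA-MB-436 none of 3 was called, where 23% of all genes were lower and 24.8% higher. No member had an unadjusted p below 0.05 there (0 of 3), and edgeR and DESeq2 called 0 of 3 too. The STING ORF raised 4 of 4 tested members in MDA-MB-436, where 9.2% of all genes were higher and 11.9% lower. CCL20 passed there only through the STING ORF libraries, and 3 of 3 others rose; with no filter 2 of 4 members were called. The ORF raised 2 of 3 in SUM159PT, where 13.2% were higher and 12.8% lower. In Py230 cells given doxycycline, 3 of 3 tested members fell, where 35.1% of all genes were lower and 32.8% higher. Ccl2 and Ccl20 passed only through the vehicle libraries there, which leaves Cxcl1, 1 of 1. The tables were normalized separately, and differences between lines were not tested.

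**Figure D1:**
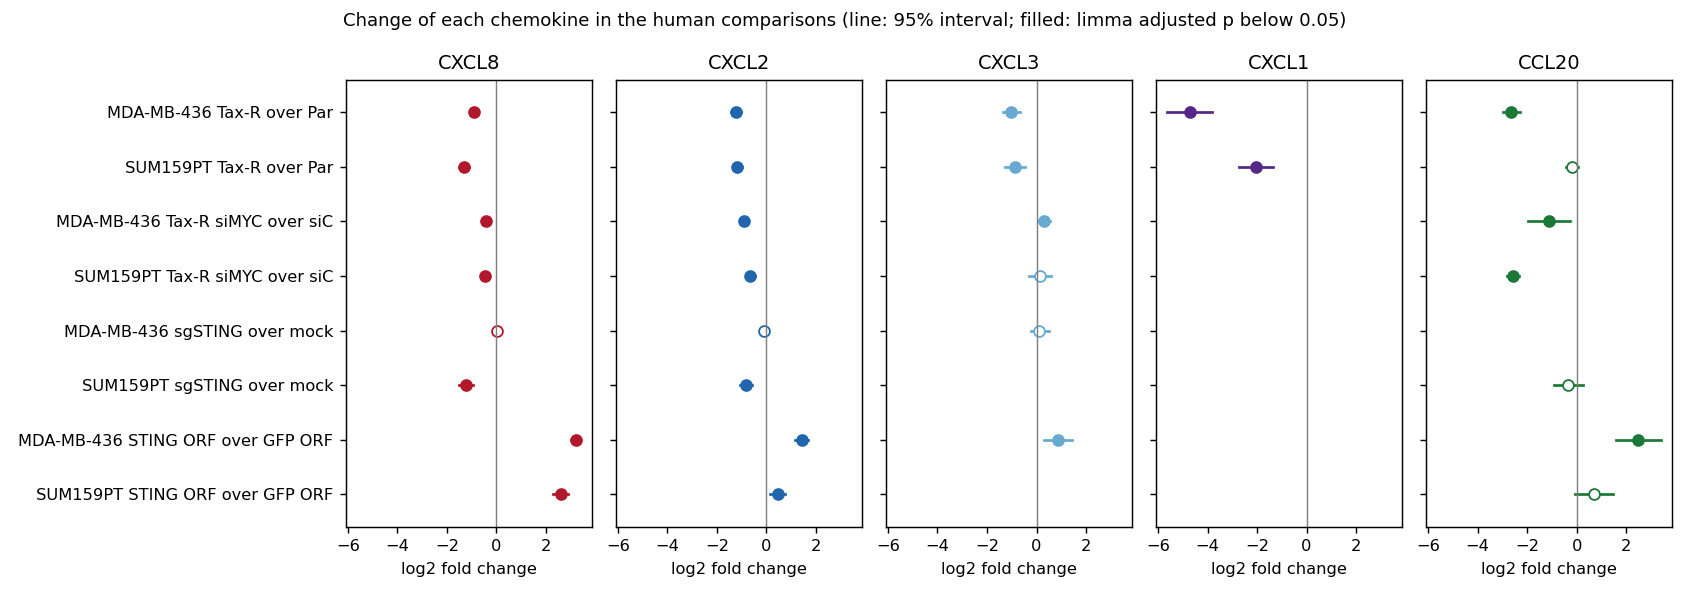
Log2 fold change (horizontal axis) of 5 chemokine genes in the 8 human comparisons, 1 row each, as point and 95% interval, filled where the limma adjusted p was below 0.05; a row with no point had no tested value. CXCL8 and CXCL2 lie left of 0 in both Tax-R and both siMYC rows and right of 0 in both STING ORF rows.

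CXCL8, or interleukin-8, is a potent attractant of human neutrophils and was the member with most reads in all MDA-MB-436 groups. In MDA-MB-436 Tax-R libraries it stood at 396.4 and 388.9 normalized counts, against 726.2 and 746.7 in Par libraries. It thus fell by 0.91 ± 0.05 on the log2 scale (limma adjusted p = 4.12e-08), and the groups did not overlap. In SUM159PT the Tax-R libraries had 244.5 and 214.8, against 533.6 and 615.3 in Par libraries, a fall with a log2 change of -1.32 ± 0.09 (limma adjusted p = 2.33e-06). STING1 fell beside it in both lines, by 1.03 ± 0.07 in MDA-MB-436 and by 1.71 ± 0.08 in SUM159PT.

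PTPRC, the pan-leukocyte marker CD45, moved with these Tax-R results. It stood at 242.2 to 375.5 in MDA-MB-436 Tax-R and at 1982 to 2113 in Par libraries, and at 3.96 to 6.137 in SUM159PT Tax-R and 518.4 to 548.2 in Par libraries. Of 7 myeloid markers 6 had a row, and LYZ was at 0 in SUM159PT Tax-R libraries. The summed level of the 5 markers other than PTPRC was 54.4 to 58.1 in MDA-MB-436 Tax-R and 90.6 to 117.6 in Par libraries, and 29.7 to 37.8 in SUM159PT Tax-R and 51.5 to 53.9 in Par libraries. Neutrophil markers summed to 0 to 1.001 in MDA-MB-436 Tax-R and 7.71 to 13.6 in Par libraries, and to 0 to 4.091 in SUM159PT Tax-R and 44.8 to 52.9 in Par libraries. Endothelial markers summed to 166.1 to 203.1 in MDA-MB-436 Tax-R and 279.4 to 294.1 in Par libraries, and to 97.2 to 117.8 in SUM159PT Tax-R and 230.7 to 234.9 in Par libraries. Fibroblast markers went opposite ways, with 3695 to 3854 in MDA-MB-436 Tax-R and 4355 to 4501 in Par libraries, but 3182 to 3230 in SUM159PT Tax-R and 2432 to 2458 in Par libraries. The part of these markers and their cells in the chemokine results was not tested, and fewer cells of a type and less RNA per cell cannot be told apart in bulk libraries.

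With MYC siRNA, CXCL8 fell in both human Tax-R lines although STING1 rose. MDA-MB-436 Tax-R libraries had 1529 and 1552 CXCL8 counts with siMYC1 and 1862 and 1874 with siMYC2, against 2254 and 2276 with siC. The mean of both siRNAs was -0.42 ± 0.03 from siC (limma adjusted p = 4.07e-12), beside a STING1 change of 2.0 ± 0.21. siMYC2 libraries had more CXCL8 than siMYC1 libraries (0.28 ± 0.04, limma adjusted p = 0.000425), in a contrast where 0.195% of all genes and 1 of 4 members were called, and that difference was lost when no filter on low values was set (adjusted p = 0.292, over a range of 8.01e-05 to 0.292 in all alternatives). The siRNA libraries of SUM159PT Tax-R cells had 255 and 316.1 with siMYC1 and 292.1 and 261.1 with siMYC2, against 366.3 and 409.8 with siC. No siMYC library reached a siC library, and CXCL8 fell (-0.47 ± 0.08, limma adjusted p = 2.17e-06), with STING1 at 0.92 ± 0.10.

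Other marker lists moved with the siMYC results. The 4 fibroblast markers (DCN, LUM, PDGFRA and COL1A1) summed in MDA-MB-436 Tax-R cells to 7432 to 7484 with siMYC1 and 6577 to 6743 with siMYC2, against 534.7 to 534.9 with siC. In SUM159PT Tax-R cells they summed to 25383 to 26343 with siMYC1 and 26003 to 27267 with siMYC2, against 3609 to 4133 with siC. DCN was at 0 in MDA-MB-436 siC libraries and LUM in the siMYC libraries. Endothelial markers summed in MDA-MB-436 to 37.96 to 48.8 with siMYC1 and 51.2 to 59.3 with siMYC2, against 19.4 to 22.4 with siC, and in SUM159PT to 147.6 to 149.4 with siMYC1 and 137.9 to 168.1 with siMYC2, against 55.8 to 66.2 with siC. The myeloid markers other than PTPRC summed in SUM159PT to 34.6 to 37.6 with siMYC1 and 28.7 to 36.5 with siMYC2, against 67.3 to 73.5 with siC. In MDA-MB-436 they summed to 23.7 to 29.3 with siMYC1 and 18.97 to 29.6 with siMYC2, against 33.98 to 47.9 with siC. The part of these markers in the siMYC results was not tested.

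STING sgRNA lowered CXCL8 in SUM159PT and left it without a called change in MDA-MB-436. SUM159PT sgSTING libraries had 67.4 and 54.5 in C1 and 54.5 and 68.0 in C2, against 156.4 and 133.4 in mock libraries. All 4 sgRNA libraries lay below both mock libraries (-1.24 ± 0.14, limma adjusted p = 2.97e-09). PTPRC moved with this result, at 0 to 4.115 in the sgRNA libraries and 92.5 to 115.2 in mock libraries, with the 5 other myeloid markers with a row at 9.26 to 12.3 in sgRNA and 17.3 to 21.9 in mock libraries in sum. LYZ was at 0 in mock libraries and CSF1R in C2 libraries. Fibroblast markers summed to 309.2 to 350.2 in C1 and 333.6 to 344.6 in C2, against 1172 to 1238 in mock libraries, and endothelial markers to 15.4 to 18.5 in the sgRNA libraries, against 24.8 to 29.8 in mock libraries. The part of these markers in the result was not tested. MDA-MB-436 sgSTING libraries had 443 and 523.7 in C1 and 523 and 583.3 in C2, against 486 and 518.7 in mock libraries. The groups overlapped, and the 95% interval of the change ran from -0.10 to 0.18 (0.04 ± 0.07, limma adjusted p = 0.667).

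With the STING ORF, CXCL8 rose in both lines. MDA-MB-436 libraries had 2659 and 2924 counts with the STING ORF, against 274.4 and 332.9 with the GFP ORF. The change of 3.20 ± 0.09 (limma adjusted p = 1.09e-24) had the lowest p of 14851 genes tested, rank 1, ahead of STING1 itself at rank 4. SUM159PT libraries had 277.5 and 294.4 with the STING ORF, against 47.9 and 45.3 with the GFP ORF, a change of 2.59 ± 0.15 (limma adjusted p = 2.44e-13) at rank 9 of 14915 genes. PTPRC was at 432.7 to 476.3 with the STING ORF and 563.6 to 645.7 with the GFP ORF in MDA-MB-436, and at 3.2 to 5.989 with the STING ORF and 0.872 to 0.943 with the GFP ORF in SUM159PT, lower with the STING ORF in the one line and higher in the other. Fibroblast markers summed to 1988 to 2123 with the STING ORF and 2990 to 3036 with the GFP ORF in MDA-MB-436, and to 196.2 to 253.5 with the STING ORF and 303.6 to 316.5 with the GFP ORF in SUM159PT. Their part in the result was not tested.

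**Figure D2:**
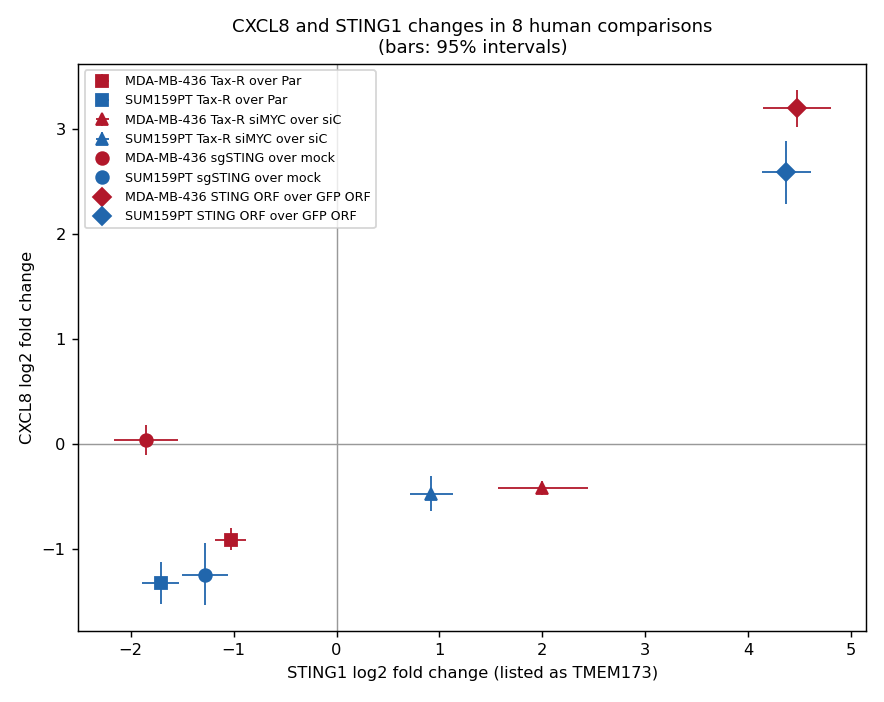
Log2 fold change of CXCL8 (vertical axis) against that of STING1 (horizontal axis) in the 8 human comparisons, with 95% intervals; red is MDA-MB-436 and blue SUM159PT. Both genes rose with the STING ORF (upper right) and both fell in Tax-R cells (lower left), while CXCL8 was below 0 and STING1 above 0 in both siMYC comparisons.

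As a description of levels, over the 3 MDA-MB-436 tables other than the Tax-R over Par table, CXCL8 averaged 440.7 ± 29.4 RPM (SD, n = 2 libraries in each group) with the STING ORF, 326.2 ± 2.26 in Tax-R siC, 265.5 ± 1.20 with siMYC2 and 219.1 ± 2.12 with siMYC1. Below these came sgSTING C2 at 80.4 ± 6.22, mock at 73.7 ± 3.31 and sgSTING C1 at 69.9 ± 8.63, whose libraries overlapped, and the GFP ORF group at 46.7 ± 6.60. In SUM159PT the siC group was highest at 56.5 ± 4.48, followed by the STING ORF group at 42.2 ± 1.97, siMYC1 at 40.4 ± 6.31 and siMYC2 at 38.98 ± 3.05, which overlapped their neighbours. Mock cells had 20.9 ± 2.24, sgSTING C2 8.87 ± 1.36, sgSTING C1 8.73 ± 1.30 and the GFP ORF group 7.07 ± 0.28. These levels come from tables normalized separately and were not tested across tables.

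CXCL2, a close relative of CXCL1 that also binds CXCR2, followed the directions of CXCL8 in each comparison where both were called. MDA-MB-436 Tax-R libraries had 137.1 and 115.9 counts, against 288.1 and 308.3 in Par libraries (-1.23 ± 0.09, limma adjusted p = 9.43e-07). SUM159PT Tax-R libraries had 186.2 and 173.3, against 378.1 and 433 in Par libraries (-1.17 ± 0.09, limma adjusted p = 4.86e-06). In both lines every Tax-R library lay below every Par library. As a description of levels outside the Tax-R over Par tables, CXCL2 ran in MDA-MB-436 from 67.4 RPM in Tax-R siC to 17.8 with the GFP ORF, and in SUM159PT from 51.3 in Tax-R siC to 13.9 in sgSTING C1.

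With siMYC, CXCL2 in MDA-MB-436 Tax-R cells stood at 235.3 and 225.8 with siMYC1 and 275 and 262.4 with siMYC2, against 477.2 and 458.2 with siC. All 4 siMYC libraries lay below both siC libraries (-0.91 ± 0.07, limma adjusted p = 2.45e-12). SUM159PT Tax-R libraries had 239.3 and 227.7 with siMYC1 and 204 and 228.6 with siMYC2, against 341.3 and 364.2 with siC, with no overlap (-0.65 ± 0.08, limma adjusted p = 1.56e-09).

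STING sgRNA lowered CXCL2 in SUM159PT, to 104.4 and 90.2 in C1 and 95.7 and 119.4 in C2, against 194.5 and 165.1 in mock libraries (-0.81 ± 0.12, limma adjusted p = 5.28e-07). MDA-MB-436 libraries had 324.7 and 326.6 in C1 and 326 and 276.3 in C2, against 325 and 334.1 in mock libraries. The groups overlapped (-0.08 ± 0.08, 95% interval -0.23 to 0.08, limma adjusted p = 0.438). With the STING ORF, MDA-MB-436 libraries had 299.7 and 320.8, against 124.8 and 106.8 with the GFP ORF (1.42 ± 0.13, limma adjusted p = 2.72e-10). The SUM159PT libraries had 145.7 and 147.2, against 104.6 and 109.4 with the GFP ORF, and did not overlap. That rise (0.45 ± 0.14, limma adjusted p = 0.0212) was lost with no filter (0.0813), with DESeq2 (0.206), without GFP ORF replicate 1 (0.225) and without GFP ORF replicate 2 (0.128), in a range of 0.00547 to 0.225 over all alternatives.

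**Figure D3:**
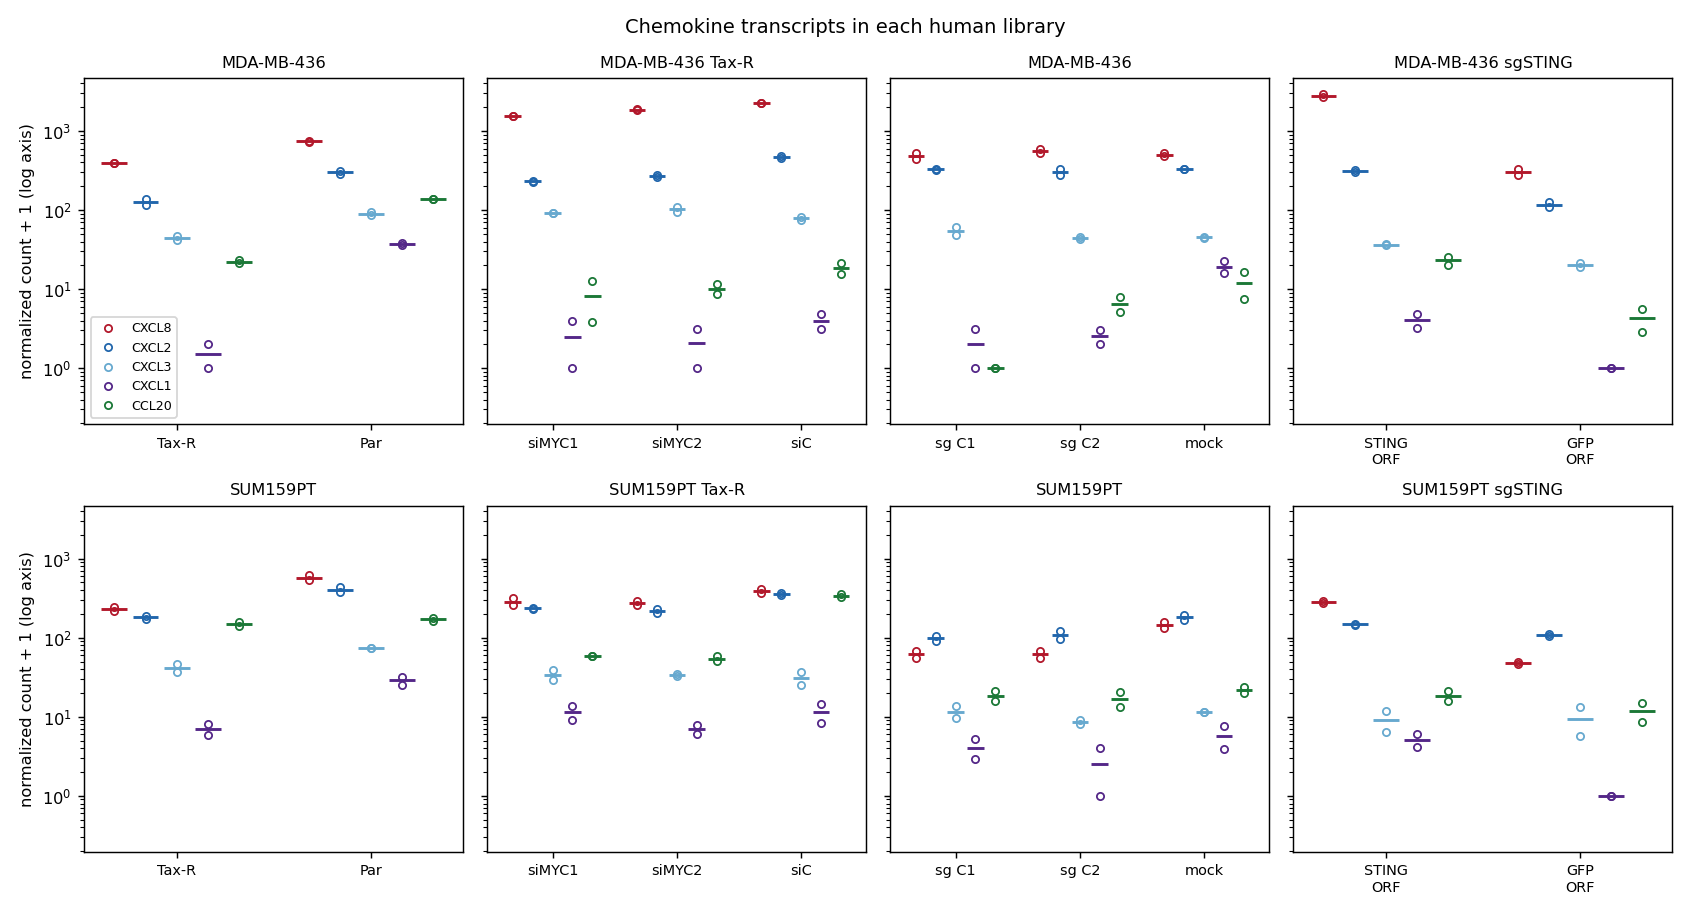
Normalized count + 1 (log axis) of 5 chemokine genes in each human library (open circles) with the group mean (bar), for MDA-MB-436 above and SUM159PT below; each panel is 1 table, normalized on its own. With the STING ORF, CXCL8 reaches 2659 and 2924 in MDA-MB-436, against 274.4 and 332.9 with the GFP ORF.

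CXCL3, the third gene of this closely related trio, had fewer reads and was tested in 6 human tables, falling in 2 and rising in 2. MDA-MB-436 Tax-R libraries had 46.0 and 41.0 counts, against 85.2 and 92.5 in Par libraries (-1.01 ± 0.15, limma adjusted p = 0.00016). SUM159PT Tax-R libraries had 45 and 35.6, against 74.2 and 73.8 in Par libraries (-0.87 ± 0.18, limma adjusted p = 0.00372). The SUM159PT call was lost without Par replicate 1 (adjusted p = 0.056) or without Par replicate 2 (adjusted p = 0.0581), in a range of 0.001 to 0.0581 over all alternatives.

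Unlike CXCL2 and CXCL8, CXCL3 was higher with siMYC in MDA-MB-436 Tax-R cells. The libraries had 91.8 and 90.2 with siMYC1 and 94.8 and 107.9 with siMYC2, against 79.9 and 74.8 with siC. The rise of 0.31 ± 0.12 (limma adjusted p = 0.031) was lost in 7 of 14 alternatives, among them quantile normalization (0.19, adjusted p = 0.162), DESeq2 (adjusted p = 0.221), and the fits without siC replicate 1 (0.0561), siC replicate 2 (0.162), siMYC1 replicate 1 (0.0572) or siMYC2 replicate 2 (0.0929), in a range of 0.0219 to 0.221. In SUM159PT Tax-R cells CXCL3 had 37.6 and 28.2 with siMYC1 and 33.8 and 31.5 with siMYC2, against 24.04 and 36.2 with siC, and the groups overlapped (0.14 ± 0.22, limma adjusted p = 0.591).

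CXCL3 had 47.1 and 60.5 in sgSTING C1 and 42 and 45.0 in C2 of MDA-MB-436, against 44.9 and 43.4 in mock libraries (95% interval -0.24 to 0.49, limma adjusted p = 0.596). With the STING ORF it had 35.8 and 34.99 in that line, against 20.2 and 18.1 with the GFP ORF. This rise of 0.85 ± 0.28 (limma adjusted p = 0.0262) was lost with no filter (0.116) and without any 1 of the 4 libraries: GFP ORF replicate 1 (0.0552) or 2 (0.0739), STING ORF replicate 1 (0.112) or 2 (0.134), in a range of 0.0173 to 0.134. In the SUM159PT sgRNA and ORF tables its table mean was below 10, at 8.54 and 12.6 in C1 and 8.23 and 7.21 in C2 against 10.5 and 10.6 in mock libraries, and at 10.98 and 5.33 with the STING ORF against 12.2 and 4.71 with the GFP ORF.

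CXCL1, a CXCR2 ligand first known for its effect on melanoma cell growth, was close to 0 in MDA-MB-436 Tax-R cells. The 2 Tax-R libraries had 1.001 and 0 counts, against 37.5 and 34.7 in Par libraries. That is 1 read against 80, a 71.7-fold lower mean with an exact 95% counting interval of 12.5 to 2866 (limma adjusted p = 2.65e-06). In SUM159PT Tax-R libraries CXCL1 had 7.16 and 4.95, against 24.4 and 31.3 in Par libraries, a log2 change of -2.04 ± 0.31 (limma adjusted p = 0.000523). CXCL1 passed the filter in both lines only through the Par libraries. Both differences are therefore descriptions, and their p-values add no support.

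In the other 6 human tables CXCL1 had a table mean below 10 and was not in the main test. MDA-MB-436 sgSTING libraries had 0 and 2.087 counts in C1 and 1 and 2.047 in C2, against 21.5 and 14.8 in mock libraries. All 4 sgRNA libraries thus lay below both mock libraries. The ratio of mock to C1 was 17.6 with an interval of 4.558 to 150.9 (2 reads against 38), and that of mock to C2 was 11.9 with an interval of 3.772 to 60.2 (3 reads against 38). When no filter was set, CXCL1 was called lower (limma adjusted p = 0.0109). Neutrophil markers moved with it, summing to 0 to 1.043 in C1 and 1 to 1.023 in C2, against 11.7 to 14.8 in mock libraries. Fibroblast markers summed to 3999 to 4025 in C1 and 3442 to 3619 in C2, against 4764 to 4800 in mock libraries. PTPRC went the other way, at 1219 to 1235 in C1 and 1274 to 1312 in C2, against 1015 to 1028 in mock libraries. Endothelial markers were also higher, at 90.2 to 97.0 in C1 and 100 to 130 in C2, against 70.2 to 79.1 in mock libraries. The part of these markers was not tested.

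CXCL1 had no read in either GFP ORF group and a few in both STING ORF groups. It stood at 2.236 and 3.888 with the STING ORF in MDA-MB-436, 6 reads in all, and at 4.991 and 3.2 in SUM159PT, 8 reads in all. Against a floor of 3 reads over a group, which a count of 0 allows, it was at least 2.23-fold higher with the STING ORF in MDA-MB-436 and at least 3.03-fold higher in SUM159PT. With no filter its adjusted p was 0.1 and 0.055 in these lines, so it was not called. In Tax-R cells of SUM159PT it had 12.5 and 8.2 with siMYC1 and 5.13 and 6.9 with siMYC2, against 13.5 and 7.24 with siC, and in those of MDA-MB-436 at most 3.883 in any library. SUM159PT sgSTING libraries had 1.898 and 4.193 in C1 and 0 and 3.089 in C2, against 6.68 and 2.88 in mock libraries.

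CXCL5, which is made mainly by epithelial cells, was near the limit of detection in the human lines. It had a row in 5 of 8 human tables and a table mean below 10 in each. MDA-MB-436 Tax-R libraries had 2.002 and 4.104, against 2.557 and 13.5 in Par libraries, whose second library held the highest value. For SUM159PT the Tax-R values were 2.046 and 1.98, against 8.13 and 5.59 in Par libraries (with no filter, limma adjusted p = 0.0628). In MDA-MB-436, sgSTING C1 and C2 had 1 read each in all, against 7 in mock cells, and the STING ORF group had 4 reads, against 0 with the GFP ORF.

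CCL2, also called MCP-1, the ligand that draws monocytes, was barely present in the human lines. It had a row only in the SUM159PT Tax-R and sgRNA tables, with table means below 10. In SUM159PT sgSTING C1 it had 0 and 0 counts and in C2 2.057 and 0, against 10.5 and 6.72 in mock libraries. C1 was at least 5.75-fold lower than mock cells (0 against 18 reads), and mock cells had 8.37 times the level of C2 (2 against 18 reads, interval 2.003 to 74.3). When no filter was set this was a called fall (limma adjusted p = 0.0313). Among Tax-R libraries of SUM159PT it had 0 and 0, against 0 and 5.594 in Par libraries, so all 5 reads came from 1 library.

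CCL20, the ligand of CCR6, had enough reads to be tested in 7 human tables and was called lower in 3 of these and higher in 1. Its fall with siMYC and its rise with the STING ORF in MDA-MB-436 are descriptions, because CCL20 passed the filter there through 1 side only. In MDA-MB-436 Tax-R libraries it had 22.02 and 20.5 counts, against 136.4 and 138.7 in Par libraries (-2.64 ± 0.15, limma adjusted p = 1.11e-07). In SUM159PT it had 158.5 and 139.6 in Tax-R libraries, against 162.6 and 177.9 in Par libraries. The 95% interval there, -0.43 to 0.05, holds small changes of either sign (limma adjusted p = 0.18).

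With MYC siRNA, CCL20 fell in SUM159PT Tax-R cells. In MDA-MB-436 Tax-R cells it had few reads and passed the filter only through the siC libraries. Its fall there is therefore a description, and its p-values add no support. In SUM159PT it had 57.5 and 58.3 with siMYC1 and 49.2 and 57.1 with siMYC2, against 322.1 and 351.8 with siC. All 4 siMYC libraries lay below both siC libraries (-2.58 ± 0.13, limma adjusted p = 1.45e-23). In MDA-MB-436 Tax-R cells it was low throughout, at 11.7 and 2.847 with siMYC1 and 7.59 and 10.6 with siMYC2, against 20.2 and 14.6 with siC. That fall (-1.12 ± 0.41, limma adjusted p = 0.0187) was lost with no filter (0.121), with DESeq2 (0.131), with siMYC2 alone (0.116), without siC replicate 1 (0.142), without siMYC1 replicate 2 (-0.69, 0.101) and without siMYC2 replicate 1 (0.0533), in a range of 0.00213 to 0.142.

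In the STING tables CCL20 was a low transcript, and its rise with the STING ORF in MDA-MB-436 is a description, as said above. MDA-MB-436 sgSTING C1 had 0 and 0 counts and C2 7 and 4.093, against 15.6 and 6.46 in mock libraries, so that C1 was at least 7.12-fold lower (0 against 23 reads) while C2 overlapped mock. The table mean was below 10, and with no filter the fall over both groups was called (limma adjusted p = 0.0215). SUM159PT sgSTING libraries had 19.9 and 14.7 in C1 and 19.6 and 12.4 in C2, against 19.1 and 23.04 in mock libraries, with overlap (-0.34 ± 0.29, limma adjusted p = 0.368). The STING ORF group of MDA-MB-436 had 24.6 and 19.4, against 4.589 and 1.908 with the GFP ORF, a rise of 2.50 ± 0.45 (limma adjusted p = 0.000131, and 0.0613 with no filter, in a range of 5.73e-07 to 0.0613). SUM159PT had 19.96 and 14.9 with the STING ORF and 13.9 and 7.54 with the GFP ORF, and this was not called (0.69 ± 0.38, limma adjusted p = 0.184).

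In 4T1, Cxcl5 and Cxcl1, both ligands of Cxcr2, were the most abundant members. Cxcl5 had 3256, 3139 and 3281 with siMYC1 and 3167, 3207 and 3295 with siMYC2, against 2799, 2416 and 2714 with siC. All 6 siMYC libraries lay above all 3 siC libraries, by a small margin (0.29 ± 0.04, limma adjusted p = 5.18e-06). Cxcl1 had 1298, 1157 and 1240 with siMYC1 and 1233, 1313 and 1271 with siMYC2, against 1133, 1047 and 1152 with siC. Its rise of 0.17 ± 0.05 (limma adjusted p = 0.00414) was not called with quantile normalization (0.10, adjusted p = 0.0782) or without siC replicate 2 (adjusted p = 0.053), in a range of 0.0023 to 0.0782.

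Ccl20, the ligand of Ccr6, fell in 4T1 with MYC siRNA. It had 46.2, 53.8 and 66.5 with siMYC1 and 78.0, 46.3 and 69.7 with siMYC2, against 179.6, 218.6 and 183.9 with siC. The highest siMYC library did not reach the lowest siC library (-1.70 ± 0.14, limma adjusted p = 3.35e-10). Mesenchymal markers moved with the 4T1 results, summing to 35972 to 39520 with siMYC1 and 35216 to 35783 with siMYC2, against 17403 to 17869 with siC, and their part was not tested. Ccl2 had 49.8, 52.9 and 45.5 with siMYC1 and 31.4, 40.9 and 55.8 with siMYC2, against 67.3, 38.7 and 62.0 with siC (-0.26 ± 0.18, limma adjusted p = 0.243). Without siC replicate 2, whose value was the lowest of siC, Ccl2 was called lower (-0.50, adjusted p = 0.0342, in a range of 0.0342 to 0.694).

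Cxcl3 in 4T1 had 65.6, 46.5 and 53.2 with siMYC1 and 43.0, 48.5 and 63.7 with siMYC2, against 50.3, 27.5 and 51.7 with siC, and the groups overlapped (0.34 ± 0.18, limma adjusted p = 0.136). Cxcl2 had a table mean of 9.955, just below the filter, and was not tested, with 6.08, 4.56 and 9.98 with siMYC1 and 10.8, 5.38 and 12.9 with siMYC2, against 15.3, 11.2 and 13.4 with siC.

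Py230 cells given doxycycline lost most of their Ccl2, the monocyte attractant. The libraries had 12.3, 8.84 and 4.57 counts with doxycycline, against 152.5, 134.3 and 148.1 with vehicle. The change of -4.02 ± 0.24 (limma adjusted p = 1.98e-13) stood beside one of -4.14 ± 0.09 for Sting1, listed as Tmem173, and one of -1.64 ± 0.05 for Myc. Cxcl1 had 186.6, 145.9 and 153.4 with doxycycline, against 249.5, 311.6 and 282.4 with vehicle, and it fell (-0.79 ± 0.10, limma adjusted p = 1.79e-07). Ccl20 had 9.47, 5.53 and 10.96 with doxycycline, against 15.99, 25.1 and 17.1 with vehicle (-1.10 ± 0.32, limma adjusted p = 0.00362). No doxycycline library reached the lowest vehicle library for any of these 3 genes. Ccl2 and Ccl20 passed the filter only through the vehicle libraries, at means of 8.574 and 8.652 with doxycycline. Their falls are therefore descriptions, and their p-values add no support. Mesenchymal markers summed to 57569 to 67088 with doxycycline, against 42180 to 43736 with vehicle, and their part in these results was not tested. Cxcl2 and Cxcl5 stayed below 5 counts in every Py230 library, and Cxcl3 had no row in that table.

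**Figure D4:**
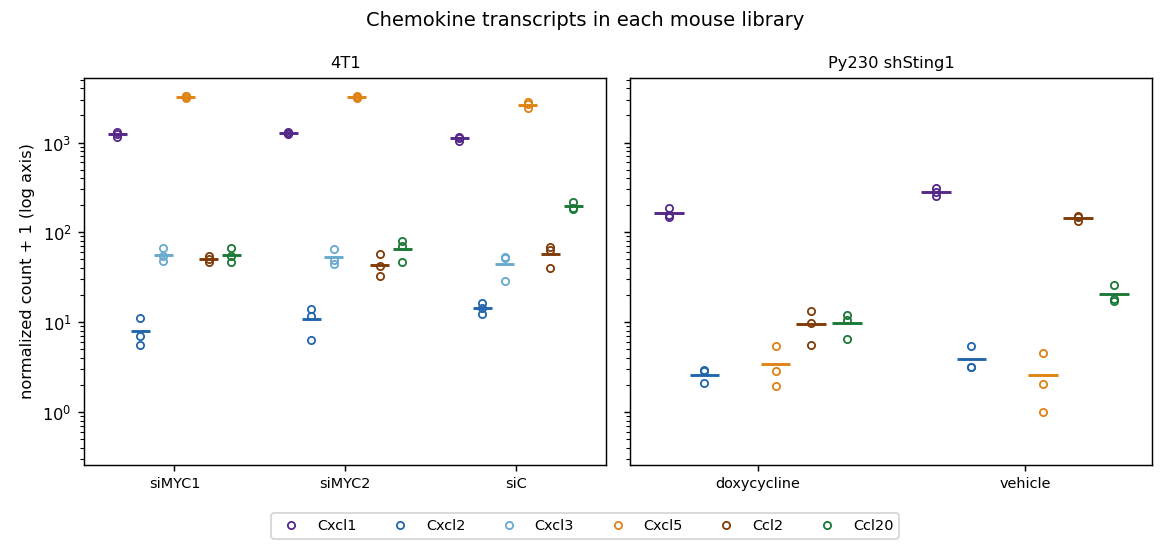
Normalized count + 1 (log axis) of the chemokine genes in each 4T1 library (left) and Py230 library (right), open circles, with the group mean as a bar. Ccl20 is lower in the siMYC groups of 4T1, at 46.2 to 78.0 against 179.6 to 218.6 with siC, and Ccl2 is lower in Py230 with doxycycline, at 4.57 to 12.3 against 134.3 to 152.5 with vehicle.

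The 2 siRNAs and the 2 sgRNA groups were also set against each other. siMYC2 against siMYC1 gave 0 called members in SUM159PT and 4T1, where limma called 0% of all genes, no member had an unadjusted p below 0.05, and edgeR and DESeq2 called 0. sgSTING C2 against C1 gave 0 called of 3 members in both human lines, against 19.9% of all genes in SUM159PT and 0.797% in MDA-MB-436, where 1 member, CXCL8, had an unadjusted p below 0.05. In MDA-MB-436, CXCL8 in C2 was 0.20 ± 0.08 above C1, and without C1 replicate 2 this was 0.32 (adjusted p = 0.0473, in a range of 0.0473 to 0.806). edgeR and DESeq2 called 0 members in both lines, and DESeq2 gave no adjusted p for 3 of 3 members in either.

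Per length of the gene's exons, CXCL8 and CXCL2 stood at like levels in mock MDA-MB-436 cells, at 32.4 ± 1.45 and 32.2 ± 0.59 RPKM (reads per kilobase of exon, scaled to library size, computed from recovered reads; SD, n = 2). CXCL3 followed at 2.92 ± 0.07, CXCL1 at 2.05 ± 0.54 and CCL20 at 1.02 ± 0.60. With the STING ORF in that line CXCL8 reached 193.8 ± 12.9, against 20.6 ± 2.90 with the GFP ORF, and CXCL2 32.6 ± 1.56, against 11.9 ± 1.24. In mock SUM159PT cells CXCL2 stood at 17.3 ± 1.92, CXCL8 at 9.20 ± 0.99 and CCL20 at 1.91 ± 0.26. Below these were CXCL3 at 0.684 ± 0.007, CCL2 at 0.625 ± 0.191 and CXCL1 at 0.531 ± 0.296. The last values rest on 22, 18 and 10 reads in all and are not ranked. Both CXCL3 libraries held 11 reads, so its SD understates the counting error.

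Across the 40 human libraries, each taken relative to its table's mean, CXCL8 and CXCL2 followed each other with a Pearson r of 0.80, and of 0.90 over the 32 libraries outside the STING ORF tables. The r of CXCL8 with STING1 was 0.81 over all 40 libraries and 0.35 without the ORF tables. For the others it was 0.54 and 0.44 (CXCL1), 0.47 and 0.16 (CXCL2), 0.46 and 0.53 (CXCL3), and 0.35 and 0.11 (CCL20). Among 12382 genes, the 3 most like CXCL8 were IL20RB (r = 0.877), the deubiquitinase YOD1 (0.813) and STING1 (0.806). CXCL1 was most like NFKBIZ (0.809), a co-factor of NF-kB, ATF3 (0.795) and GLCCI1 (0.792), and CCL20 most like the mitochondrial phosphatase PPM1K (0.752), PMAIP1 (0.746) and NFKBIZ (0.739). These are descriptions: libraries of a table share controls, depth and normalization. CXCL1 also had a table mean below 10 outside the Tax-R over Par tables, so its r values rest partly on few reads.

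Genes that act upstream of the chemokines, in lists chosen by function, are given here by their counts, beside the share of all tested genes called in the same comparison and direction. These shares are the same for every list in a comparison. Passage of the filter through only 1 side of a comparison was checked for the members and not for these lists, so the counts are descriptions. Of 19 NF-kB subunits and feedback genes, 12 fell and 2 rose in MDA-MB-436 Tax-R cells (median -0.49, against 0.01 over all genes), where 26.9% of all genes fell and 27.7% rose. In SUM159PT Tax-R cells 8 fell and 2 rose (median -0.18), where 22.1% fell and 23.5% rose. BIRC3, an inhibitor of apoptosis that NF-kB induces, fell by 2.38 ± 0.06 and by 0.87 ± 0.07 in these lines. With the STING ORF, 10 rose and 3 fell of 19 in MDA-MB-436, beside 9.2% and 11.9% of all genes, and 9 rose and 0 fell of 18 in SUM159PT, beside 13.2% and 12.8%. BIRC3 was at 1.40 ± 0.16 and 1.95 ± 0.15.

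With siMYC in MDA-MB-436 Tax-R cells the NF-kB list had 7 higher and 7 lower of 19, where 34% of all genes were higher and 33.7% lower, a share near the background. In SUM159PT Tax-R cells 4 were higher and 6 lower of 19, where 35% of all genes were higher and 34.5% lower, so its lower share too was near the background. BIRC3 fell in both, by 1.32 ± 0.10 and 1.62 ± 0.05. With STING sgRNA 11 of 19 fell and 2 rose in MDA-MB-436, where 23% of all genes fell and 24.8% rose, and 8 of 18 fell and 1 rose in SUM159PT, where 19.8% fell and 19.3% rose. In Py230 with doxycycline 13 of 19 fell and 4 rose, with Nfkbie at -1.89 ± 0.11, where 35.1% of all genes fell and 32.8% rose. In 4T1 with siMYC 7 of 19 rose and 2 fell, where 24.7% rose and 21.5% fell.

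Of the AP-1 and C/EBP factors 8 of 12 fell and 2 rose in MDA-MB-436 Tax-R cells, beside 26.9% and 27.7% of all genes. In SUM159PT Tax-R cells 4 of 12 fell and 3 rose, beside 22.1% and 23.5%, with the rising share near the background. In the sgSTING cells 7 of 11 fell and 1 rose in MDA-MB-436, beside 23% and 24.8% of all genes. In SUM159PT sgSTING cells 7 of 11 fell and 0 rose, beside 19.8% and 19.3%. JUNB had a change of -1.93 ± 0.09 in MDA-MB-436 sgSTING cells and ATF3 of -0.90 ± 0.20 in SUM159PT sgSTING cells. The STING ORF gave 3 of 11 higher and 1 lower in MDA-MB-436, beside 9.2% and 11.9%, with the lower share near the background. It gave 3 of 12 higher and 0 lower in SUM159PT, beside 13.2% and 12.8%. With siMYC, 6 of 10 rose and 3 fell in MDA-MB-436 Tax-R cells, beside 34% and 33.7%, with the falling share near the background. In SUM159PT Tax-R cells 8 of 11 rose and 1 fell, beside 35% and 34.5%, with FOS at 2.10 ± 0.12. In 4T1 8 of 11 rose and 1 fell, beside 24.7% and 21.5%. In Py230 with doxycycline 7 of 12 fell and 4 rose, beside 35.1% and 32.8%, with the rising share near the background and Fosl1 at -3.26 ± 0.13.

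The list of upstream cytokines holds genes that can induce these chemokines, and also IL1RN, which blocks the IL-1 receptor. With the STING ORF 6 of 6 tested were called higher in MDA-MB-436 (beside 9.2% of all genes). In SUM159PT 3 of 4 were (beside 13.2%). A cytokine with few reads may have passed the filter only through the STING ORF libraries, which was not checked, so these counts are descriptions. IL6 was at 2.89 ± 0.11 and 1.81 ± 0.28, and IL1A, a form of IL-1, at 2.76 ± 0.20 and 1.70 ± 0.40. The tallies of the Tax-R cells differed: 6 of 8 fell and 1 rose in MDA-MB-436 (beside 26.9% and 27.7% of all genes), while in SUM159PT 2 of 5 fell and 3 rose (beside 22.1% and 23.5%). IL6 fell in both, with a change of -2.58 ± 0.15 in MDA-MB-436 and -3.40 ± 0.24 in SUM159PT. With siMYC in Tax-R cells, 5 of 7 rose and 2 fell in MDA-MB-436 (beside 34% and 33.7% of all genes), where IL11 was at 5.51 ± 0.30. In SUM159PT 4 of 6 rose and 2 fell (beside 35% and 34.5%), where IL11 was at 4.2 ± 0.4. With STING sgRNA 2 of 6 fell and 1 rose in MDA-MB-436 (beside 23% and 24.8% of all genes) and 2 of 3 fell and 1 rose in SUM159PT (beside 19.8% and 19.3%). In 4T1 2 of 5 rose and 0 fell (beside 24.7% and 21.5% of all genes), and in Py230 with doxycycline 3 of 6 fell and 1 rose (beside 35.1% and 32.8%).

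Other chemokines and colony-stimulating factors of myeloid cells were few among the tested genes. In Tax-R cells 3 of 4 fell and 1 rose in MDA-MB-436, where 26.9% of all genes fell and 27.7% rose. In SUM159PT Tax-R cells 1 of 3 rose and 0 fell, where 23.5% rose and 22.1% fell. In the siMYC comparisons, 4 of 5 rose and 0 fell in MDA-MB-436 Tax-R cells, beside 34% and 33.7% of all genes. Among those that rose was CSF1, the macrophage growth factor (1.31 ± 0.03). In SUM159PT Tax-R cells 3 of 5 rose and 1 fell, beside 35% and 34.5%, with CSF3, the neutrophil growth factor, at -1.55 ± 0.13. CX3CL1, which binds CX3CR1 on monocytes, was at -4.95 ± 0.58 in MDA-MB-436 sgSTING cells, where 4 of 6 fell and 0 rose, beside 23% and 24.8% of all genes. In SUM159PT sgSTING cells 1 of 3 fell and 0 rose, beside 19.8% and 19.3%. In STING ORF cells 1 of 4 rose and 1 fell in MDA-MB-436, beside 9.2% and 11.9% of all genes. In SUM159PT 0 of 3 were called, where 13.2% rose and 12.8% fell. In 4T1 5 of 8 rose and 0 fell, beside 24.7% and 21.5% of all genes. In Py230 with doxycycline 6 of 9 fell and 2 rose, beside 35.1% and 32.8%. Of the chemokine receptors and scavengers 3 or 4 were tested in each table. In MDA-MB-436 Tax-R cells 0 of 3 rose and 2 fell, beside 27.7% and 26.9% of all genes. In SUM159PT Tax-R cells 1 of 4 rose and 2 fell, beside 23.5% and 22.1%. With siMYC 2 of 3 rose and 1 fell in MDA-MB-436, beside 34% and 33.7%, and 3 of 4 rose and 0 fell in SUM159PT, beside 35% and 34.5%. With STING sgRNA 0 of 3 rose and 2 fell in MDA-MB-436, beside 24.8% and 23%. In SUM159PT 2 of 4 rose and 2 fell, beside 19.3% and 19.8%. The STING ORF gave 1 of 3 higher and 1 lower in MDA-MB-436, beside 9.2% and 11.9%. It gave 1 of 4 higher and 1 lower in SUM159PT, beside 13.2% and 12.8%. In 4T1 3 of 4 rose and 1 fell, beside 24.7% and 21.5%. Doxycycline gave 3 of 4 higher and 0 lower in Py230, beside 32.8% and 35.1%. ACKR1, a member of this list which traps chemokines, was at -2.81 ± 0.44 in SUM159PT Tax-R cells and at 4.03 ± 0.26 with siMYC.

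Of the receptors and adaptors upstream of NF-kB, 10 of 22 fell and 5 rose in MDA-MB-436 Tax-R cells, beside 26.9% and 27.7% of all genes. In SUM159PT Tax-R cells 10 of 23 fell and 2 rose, beside 22.1% and 23.5%. With siMYC 13 of 22 rose and 5 fell in MDA-MB-436 (beside 34% and 33.7% of all genes) and 13 of 23 rose and 7 fell in SUM159PT (beside 35% and 34.5%). In 4T1 12 of 24 rose and 1 fell, beside 24.7% and 21.5%. With STING sgRNA 6 of 22 rose and 6 fell in MDA-MB-436, near the background of 24.8% and 23%. In SUM159PT 7 of 22 rose and 3 fell, beside 19.3% and 19.8%. In STING ORF cells 6 of 22 rose and 4 fell in MDA-MB-436 (beside 9.2% and 11.9% of all genes), and 2 of 22 rose and 6 fell in SUM159PT (beside 13.2% and 12.8%). In Py230 with doxycycline 12 of 24 fell and 7 rose, beside 35.1% and 32.8% of all genes, with Tlr2 at -1.93 ± 0.09.

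The 7 factors that bind and degrade or stabilize transcripts with AU-rich elements, as chemokine transcripts carry, gave small counts. With STING sgRNA 4 fell and 0 rose in MDA-MB-436, with ZFP36 at -0.88 ± 0.15, beside 23% and 24.8% of all genes. In SUM159PT 3 fell and 1 rose, beside 19.8% and 19.3%. In Tax-R cells 3 fell and 1 rose in MDA-MB-436 (beside 26.9% and 27.7% of all genes), but 0 fell and 3 rose in SUM159PT (beside 22.1% and 23.5%). With siMYC 2 rose and 3 fell in MDA-MB-436 (beside 34% and 33.7% of all genes) and 3 rose and 3 fell in SUM159PT (beside 35% and 34.5%), shares near the background. In 4T1 6 rose and 0 fell, beside 24.7% and 21.5%. The STING ORF gave 1 higher and 3 lower in MDA-MB-436, beside 9.2% and 11.9% of all genes. It gave 1 of each in SUM159PT, near the background of 13.2% and 12.8%. Doxycycline gave 1 higher and 4 lower in Py230, beside 32.8% and 35.1%. In the cGAS-STING list, which holds STING1 itself, 4 of 9 rose and 0 fell with the STING ORF in each human line. Of all genes 9.2% rose and 11.9% fell in MDA-MB-436, and 13.2% rose and 12.8% fell in SUM159PT. In Py230 with doxycycline 6 of 9 fell and 1 rose, beside 35.1% and 32.8%. In the other comparisons 3 or 4 of 9 rose and 2 to 4 fell, where 19.3% to 35% of all genes rose and 19.8% to 34.5% fell. Whether the list differed from these shares was not tested.

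T cell markers were near 0 in both species, as were neutrophil and endothelial markers in mouse libraries, while the other sums ran higher in at least some libraries. Neutrophil markers summed to 0 to 52.9 normalized counts over all human libraries and to 0 to 7.3 in mouse libraries, and T cell markers to 0 to 6.82 and 0 to 1.79. Myeloid markers summed to 8.53 to 2203 in human libraries, nearly all of it PTPRC where the sum was high, and to 333.6 to 766.5 in mouse libraries. Endothelial markers reached 294.1 in human and 8.96 in mouse libraries, and fibroblast markers 27267 and 306.3. Epithelial markers summed to 1951 to 11517 in the human lines, where EPCAM was at most 24.6, and to 10486 to 23656 in the mouse lines. Mesenchymal markers summed to 8345 to 40607 and 17403 to 67088, and the hormone receptor list to 367.9 to 1208 and 707.7 to 1378, in human and mouse libraries.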

How the data were processed

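RNA of cultured cells was taken with a Maxwell kit, per the labels. Each deposited value is a signal: a read count scaled by the authors with 1 size factor per library. Among tools, the submitters' processing notes list HISAT2, featureCounts, StringTie and DESeq2. Their versions, the genome build and the strand setting are not given in the sources used here. Whole reads were recovered from the smallest steps (100% whole at a tolerance of 0.05). Each table was fitted alone by limma-trend, two-sided, on log2(value + 1) for genes with a mean of 10 or more, and 2 perturbed groups were averaged against their control. Software versions were R 4.3.3, limma 3.58.1, DESeq2 1.42.0 and edgeR 4.0.16, and fits were tested on simulated data. The alternatives changed the pseudocount to 4, dropped the filter, applied quantile normalization, added a replicate block, used DESeq2 or edgeR on recovered reads, took a single perturbed group, left out each library, or counted both MDA-MB-436 Tax-R libraries as 1. The members and lists were chosen with earlier results of these data known. The text names all members, STING1 and MYC, some of the 2 called genes per list and comparison with the largest change, and 3 genes of highest correlation for CXCL1, CXCL8 and CCL20; VIM, EPCAM and PTPRC were singled out after their values were seen. Counting intervals (exact, 95%) and floors of 3 reads cover counting error only. Lengths are union exon lengths of GENCODE models.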

Additional observations from a re-analysis of the deposited data

How the results depend on the processing

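No called single-gene value changed direction under any alternative that was run: of 723, 693 kept their side of the threshold, 28 lost a call and 2 gained one. Of 189 counts of called members, 178 stayed within 1.5 times. For siMYC in MDA-MB-436 Tax-R cells, DESeq2 called 2 members instead of 4, and leaving out 1 library gave 2 to 3. In MDA-MB-436 with the STING ORF, 2 of 4 were called with no filter, and 2 with DESeq2, which gave no adjusted p for the other 2. In SUM159PT with the STING ORF, 1 of 2 calls was left with no filter and with DESeq2, and leaving out 1 library gave 1 to 2. No filter added 2 calls to the 0 of MDA-MB-436 with STING sgRNA (CXCL1 and CCL20) and gave 0 instead of 1 between its siMYC siRNAs. Between sgSTING groups of MDA-MB-436, leaving out 1 library gave 0 to 1. The cause of these changes was not tested.

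Same-numbered libraries did not deviate together (correlations of -0.091 to 0.11), so no shared effect of the number was seen. So few libraries in a group cannot show whether samples were paired, and the labels do not say. With the replicate number as a block, the members called were 5 and 4 in Tax-R cells of MDA-MB-436 and SUM159PT, 4 and 3 with siMYC, 0 and 2 with STING sgRNA, 4 and 2 with the STING ORF, 3 in 4T1 and 3 in Py230, as without it. With 2 or 3 libraries a group and few reads for CXCL1, CXCL5, CCL2 and CCL20, counting error limits these genes, and in tables where their mean was below 10 they were not in the main test.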
